A study of Mus musculus with 2 samples.

Results

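The genes described here are 10 genes of liver iron handling and of hepcidin, the hormone that governs it. They were taken by symbol from the 32285 genes listed in both libraries, and all 10 were found: Hamp (ENSMUSG00000050440), Hamp2 (ENSMUSG00000056978), Bmp6 (ENSMUSG00000039004), Bmp2 (ENSMUSG00000027358), Tfr2 (ENSMUSG00000029716), Tfrc (ENSMUSG00000022797), Trf (ENSMUSG00000032554), Slc40a1 (ENSMUSG00000025993), Fth1 (ENSMUSG00000024661) and Ftl1 (ENSMUSG00000050708). The data were single-cell 3′ UMI counts (unique molecular identifiers, 1 per captured transcript) from 2 libraries of male mouse liver, 1 for each group. WT mice were controls, and their library was made from liver. N-LKO mice carried floxed Nus1, the gene of NgBR, and albumin-Cre, which deletes it in hepatocytes, and their library was made from liver together with tumor. Both groups were on the C57BL6 background and received the study's diet for 16 weeks, which the titles call HFD and the treatment labels call WD. Genotype, tumor tissue and library differed together and cannot be told apart. With 1 library per group there was no replicate check and no test, and every interval below is a 95% interval that covers counting error only.

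Hepcidin is secreted by hepatocytes and makes ferroportin, the iron exporter encoded by Slc40a1, leave the cell surface of macrophages and other iron-releasing cells. Its transcription is raised by BMP ligands made by liver sinusoidal endothelial cells, which act on hepatocytes through SMAD proteins, and by IL-6 through STAT3. Transferrin, the product of Trf, carries iron in blood and is bound by the receptors of Tfrc and Tfr2, and ferritin, built from the products of Fth1 and Ftl1, stores iron.

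The mouse has a pair of adjacent hepcidin genes, and the stretch before their starts is shown because their log2 ratios between the libraries differed. Any part of the sequence in that difference was not tested. RefSeq (build GRCm38.p6) gave windows of 7 of the 10 members, without Trf, Bmp2 and Slc40a1. The last 130 bases before each start are given 5′ to 3′ on the minus strand. Capitals mark the letters GGCGCC, the core of the element bound by BMP-activated SMADs, and TTCNNNGAA, the core of STAT sites, both searched on both strands.
Hamp, chr7:30944030-30944159: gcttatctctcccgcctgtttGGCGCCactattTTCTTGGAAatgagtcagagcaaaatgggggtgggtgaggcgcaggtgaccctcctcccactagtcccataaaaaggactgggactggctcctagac
Hamp2, chr7:30924182-30924311: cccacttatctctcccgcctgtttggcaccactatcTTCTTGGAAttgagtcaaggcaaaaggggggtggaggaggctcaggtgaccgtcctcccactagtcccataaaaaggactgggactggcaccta
The 2 stretches were identical at 115 of 127 aligned bases (90.6%). Both held the STAT letters, at 97 bases before the start in Hamp and 94 in Hamp2. Hamp alone held GGCGCC, and the substitution G25A, counted from the first base printed for Hamp, removes it in Hamp2. Of 32851 promoter windows of 300 bases, 11.9% held GGCGCC and 8.30% held TTCNNNGAA. The same search found GGCGCC in 1 of the 2 Tfrc windows and neither motif in the windows of Tfr2, Ftl1, Bmp6 or Fth1. A match of letters is not a bound site, and no binding was measured.

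Another 4 members carried iron responsive elements, hairpins in the RNA through which iron sets translation or RNA decay. These members are named because UMIs count RNA, which misses an effect on translation but can reflect one on RNA decay. The element was searched in GENCODE M21 transcripts (GRCm38) as a loop CAGTGN that follows a C and 5 bases, with those 5 bases paired to the 5 after the loop. It was found in transcripts of 294 of 21877 protein-coding genes (1.34%). Capitals mark the loop.
Fth1, 5′ UTR, chr19:9982732-9982761, plus strand: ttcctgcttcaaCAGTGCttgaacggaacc
Ftl1, 5′ UTR, chr7:45459778-45459807, minus strand: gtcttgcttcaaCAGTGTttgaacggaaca
Slc40a1, 5′ UTR, chr1:45925464-45925493, minus strand: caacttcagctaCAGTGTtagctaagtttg
Tfrc, the first of 4 in the 3′ UTR, chr16:32631219-32631248, plus strand: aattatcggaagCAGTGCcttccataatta
None of the other 6 members had a match in the transcripts searched. The submitters' processing notes name another build, mm9, so these coordinates belong to the reference and not to the counts.

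After filtering, 18431 WT and 19855 N-LKO cells remained, with medians of 1400 and 1455 UMIs. The 2 libraries shared 121 barcode strings among these cells. Cells were named from marker genes as hepatocyte-like (9926 in WT and 2116 in N-LKO), macrophage-like (2437 and 5350), endothelial-like (1883 and 2383), T-like (1181 and 1930), stellate-like (908 and 642) and smaller classes. Hepatocyte-like cells of the libraries lay in different clusters: 8297 WT cells in 1 main cluster, 1181 in a cluster poor in Malat1, a nuclear RNA, and 333 in a cluster rich in it, and 1999 N-LKO cells in a single cluster. A further cluster of 2032 N-LKO cells and 1 WT cell, rich in Malat1, was left unnamed by the marker rule and is described on its own, since its place decides the Hamp comparison. The targeted gene, Nus1, stood at 73.0 CPM (UMIs scaled to a common total of the class) in the hepatocyte-like cells of WT against 38.9 CPM in those of N-LKO (log2 ratio, N-LKO over WT, −0.90, −1.14 to −0.68), and at 77.3 against 77.1 CPM in macrophage-like cells. The assay reads the 3′ end, outside the deleted exon.

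Hepatocyte transcripts such as Hamp and Trf were counted in every class, so each level is set beside an estimate for free RNA. Free RNA was taken from barcodes under 500 UMIs. The files hold none below 326 (WT) and 377 (N-LKO) UMIs, so these barcodes may include cells of low depth. In these barcodes the WT library held Hamp at 2533 and Trf at 2705 CPM, and the N-LKO library held them at 879 and 3320 CPM. Free RNA was estimated to make up 47.9% (WT) and 45.8% (N-LKO) of the UMIs of T-like cells, and 84.1% (WT) and 38.7% (N-LKO) of those of hepatocyte-like cells. The high WT value for hepatocyte-like cells puts the free RNA estimates of Fth1 and Ftl1 in WT (4791 and 3384 CPM) above the levels counted (3861 and 2456 CPM), so it cannot be taken as exact.

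**Figure D1:**
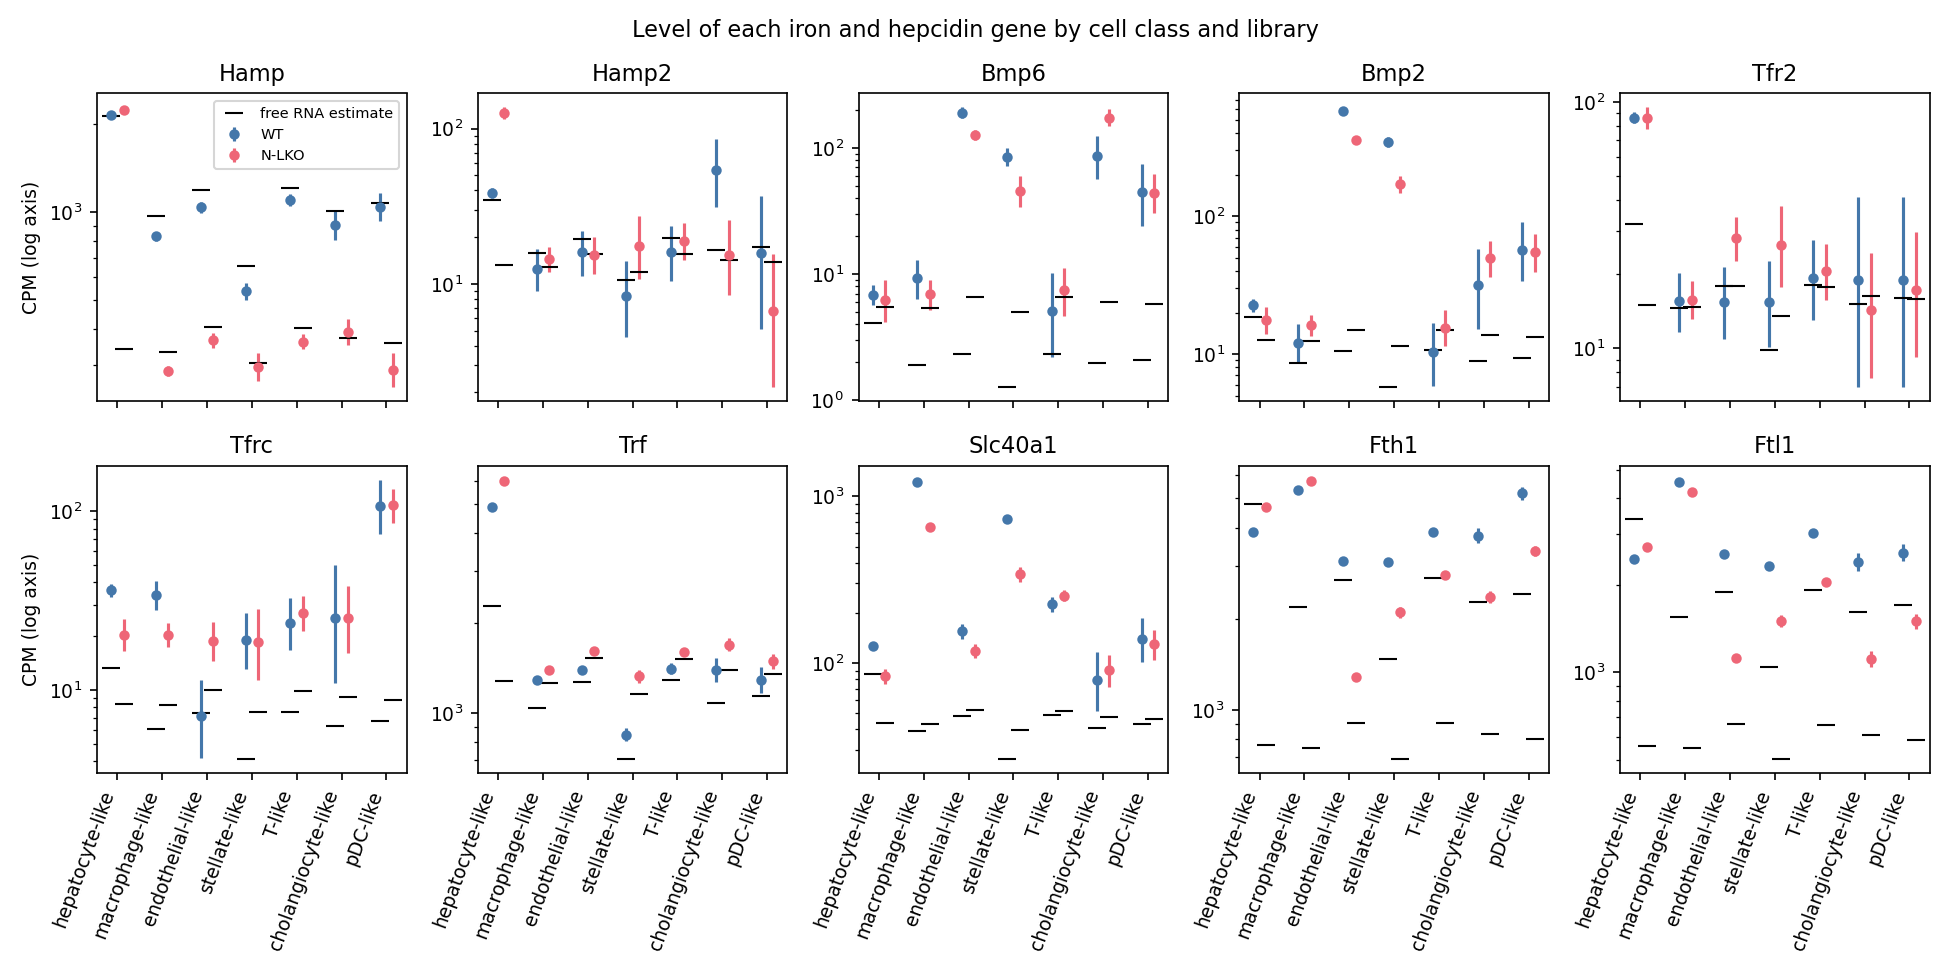
Level of each member in CPM (log axis) in 7 cell classes of the WT (blue) and N-LKO (red) library, with 95% Poisson intervals as bars and the free RNA estimate as a black dash. Hamp lies far above its dash in the hepatocyte-like cells of N-LKO (2238 against 341 CPM) but on it in those of WT (2147 against 2130.5 CPM), while Bmp6 and Bmp2 in endothelial-like cells and Slc40a1 in macrophage-like cells lie far above theirs.

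Hepcidin RNA stood at similar levels in the named hepatocyte-like cells of the 2 livers, while its paralog was higher in N-LKO. WT cells held Hamp at 2147 CPM (2125 to 2169.5; 35979 UMIs) and N-LKO cells at 2238 CPM (2195 to 2282; 10407 UMIs), so the log2 ratio was 0.06 (0.03 to 0.09). For Hamp2 the WT level was 38.4 CPM (35.5 to 41.5; 644 UMIs) and the N-LKO level 126 CPM (116 to 137; 586 UMIs), with a log2 ratio of 1.71 (1.55 to 1.88). Their transcripts were identical at 388 of 410 aligned bases (94.6%) and at 95 of the last 100 bases of Hamp, and how their UMIs were split was not checked. WT Hamp2 lay near its free RNA estimate (34.5 CPM) and N-LKO Hamp2 far above its own (13.1 CPM). The WT level of Hamp lay at its free RNA estimate (2130.5 CPM) and the N-LKO level far above its own (341 CPM), so that little WT Hamp was left after subtraction. The log2 ratio of Hamp was then 6.83, or 4.88 once the counts left were scaled to their own total, and that of Hamp2 4.85 or 2.90. That scaling alone lowered every log2 ratio in hepatocyte-like cells by 1.95, because the WT estimate of free RNA was so much larger. Hamp2 made up 1.76% of the hepcidin UMIs of the main WT cluster and 5.52% of those of the N-LKO cluster.

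The unnamed N-LKO cluster had little hepcidin. Its 2032 cells held Hamp at 345 CPM (327 to 364), below the 362 CPM of N-LKO T-like cells and the free RNA estimate of 401 CPM. They held Tfr2, the receptor that senses iron-laden transferrin in hepatocytes, at 70.9 CPM (62.9 to 79.8), against 20.6 CPM in T-like cells and a free RNA estimate of 17.7 CPM. Trf stood at 2072 CPM, above its free RNA estimate of 1516 CPM. The free RNA share of this cluster (45.7%) came from secretory hepatocyte genes, as for classes that are not hepatocyte-like. If its cells are hepatocytes, their own RNA is counted in that share, so these estimates cannot place the cluster. With this cluster counted as hepatocyte-like, the log2 ratio of Hamp became −0.65, that of Hamp2 1.04 and that of Trf −0.23. The score of the cluster for hepatocyte markers was 0.18 against a minimum of 0.2, and it passed under 3 of the 6 reference settings tried. Those settings were compared with the Hamp values in view, and the first setting was kept, so neither sign of the Hamp difference is established. In WT the Malat1-rich cluster held Hamp at 1251 CPM, near the 1104 CPM of WT T-like cells, and Tfr2 at 127 CPM.

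**Figure D2:**
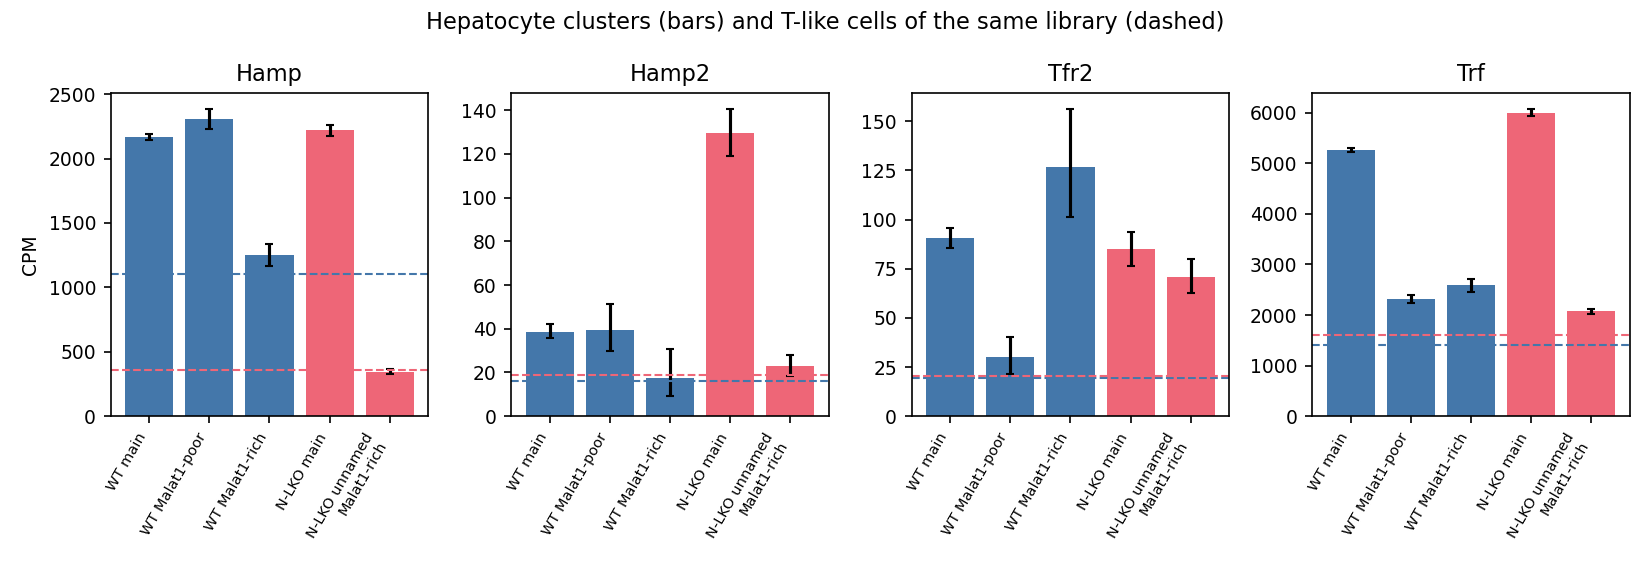
CPM of Hamp, Hamp2, Tfr2 and Trf in 3 WT hepatocyte-like clusters (blue), the main N-LKO cluster and the unnamed N-LKO cluster (red), with 95% Poisson intervals. Dashed lines give T-like cells of each library, and the unnamed cluster lies at that line for Hamp (345 against 362 CPM) but above it for Tfr2 (70.9 against 20.6 CPM).

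Hamp was spread less evenly over N-LKO than over WT hepatocyte-like cells. After each cell was thinned to 1000 UMIs, a Hamp UMI was present in 79.7% (78.9 to 80.5) of cells in WT and 54.9% (52.8 to 57.1) in N-LKO. T-like cells, which should lack it, held one in 68.2% (WT) and 29.5% (N-LKO) of cases. In the main WT cluster a cell held 2.08 ± 2.09 Hamp UMIs per 1000 (SD over 8297 cells), and in the N-LKO cluster 2.14 ± 3.31 (SD over 1999 cells). Means were alike and the spread was wider in N-LKO. For Hamp2 the shares of hepatocyte-like cells were 3.27% (2.93 to 3.64) in WT and 7.56% (6.47 to 8.77) in N-LKO, and those of T-like cells 1.61% and 1.45%. Unthinned, the shares were 89.0% and 66.4% for Hamp and 4.92% and 11.9% for Hamp2, where hepatocyte-like cells had median depths of 1520 (WT) and 1930.0 (N-LKO) UMIs and T-like cells of 1190.0 and 1360.0. The WT share of Hamp therefore lies close to its background.

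A score of position along the lobule, which was not itself measured, was associated with hepcidin in both livers. Cells of the main cluster of each library were ranked from periportal to pericentral by the share of UMIs from zonation genes that hold no member, and cut into 3 equal bins. In N-LKO, Hamp stood at 3603 CPM in the periportal, 2110 in the middle and 840 in the pericentral bin, a 4.29-fold difference between the ends (log2 2.10, 2.01 to 2.19). In WT it stood at 2749, 2107 and 1529 CPM, a 1.80-fold difference (log2 0.85, 0.80 to 0.89). Hamp2 followed the same order, at 176, 156 and 51.2 CPM in N-LKO and 50.8, 37.6 and 25.5 CPM in WT. Both ferritin genes ran the other way: Fth1 was at 3802, 4767 and 5707 CPM in N-LKO and at 3411, 3567 and 3683 CPM in WT. The periportal gene Cyp2f2, which is in the score, differed 10.2-fold between the end bins of N-LKO and 2.28-fold between those of WT, while for the pericentral gene Cyp2e1, also in the score, the log2 difference was alike (−3.17 and −3.08). The estimated free RNA share of hepatocyte-like cells was larger in WT (84.1% against 38.7%), and its part in the difference between the livers was not tested. The N-LKO library also held tumor, whose cells were not separated from this cluster, and their part was not tested either. The bins are ranges of a score: 2962 of 8297 cells (WT) and 683 of 1999 cells (N-LKO) lay within 1 UMI per 1000 of a boundary.

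**Figure D3:**
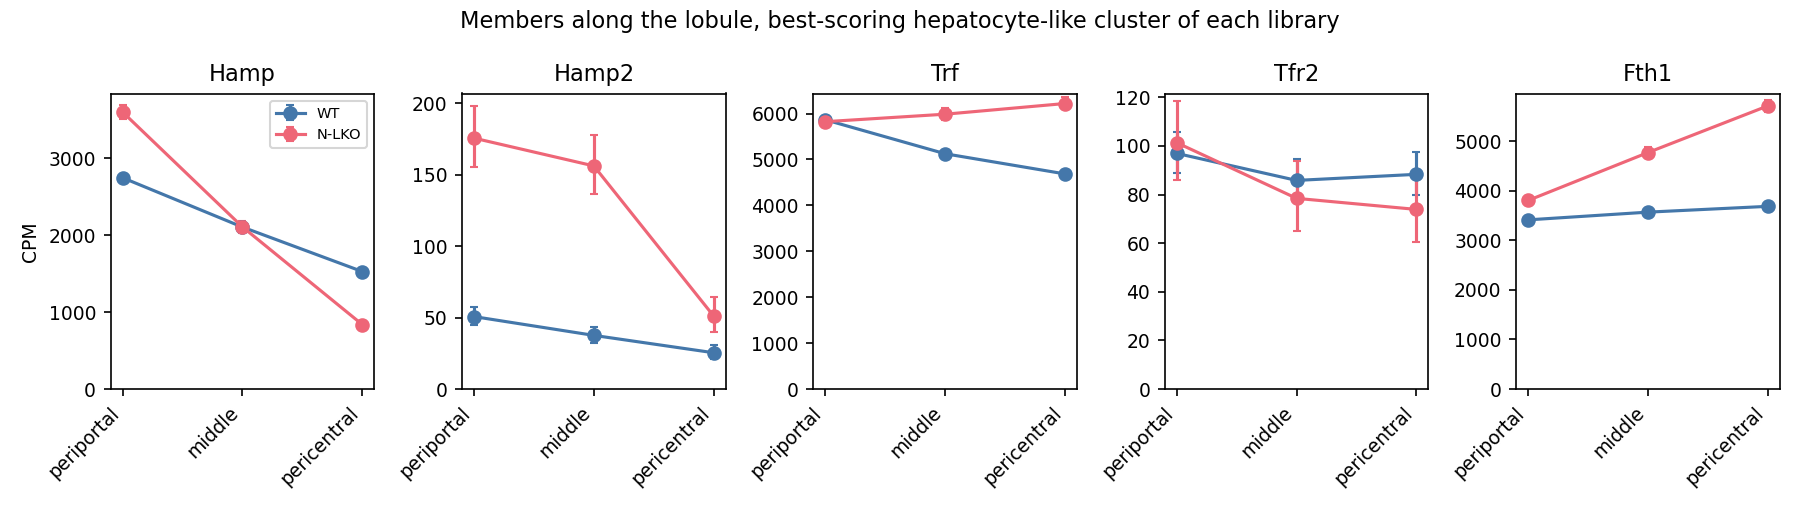
CPM of 5 members in the periportal, middle and pericentral bins of the main hepatocyte-like cluster of each library (WT blue, N-LKO red), with 95% Poisson intervals. Hamp descends from 3603 to 840 CPM in N-LKO and from 2749 to 1529 CPM in WT, while Fth1 ascends in both.

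Of transferrin and its receptors, Tfrc differed between the libraries in opposite directions by class, though its WT level in endothelial-like cells lay at free RNA. Hepatocyte-like cells held Trf at 4898 (WT) and 5972 (N-LKO) CPM (log2 ratio 0.29, 0.27 to 0.31). With free RNA subtracted the ratio was 0.84, and −1.11 after the counts left were scaled to their own total, so its sign turned with that scaling and not with the subtraction. In the other classes Trf lay closer to its free RNA estimate, for example at 1409 against 1295 CPM in WT T-like cells. Tfr2 was at 86.4 CPM (82.0 to 90.9) and 86.2 CPM (78.0 to 95.1), with a log2 ratio interval of −0.16 to 0.16. Tfrc, the receptor through which most cells take up transferrin, was lower in the N-LKO library in both hepatocyte-like cells, at 20.4 against 36.0 CPM (−0.81, −1.15 to −0.50), and macrophage-like cells, at 20.3 against 34.0 CPM (−0.75, −1.10 to −0.40). In endothelial-like cells it was higher in N-LKO, at 18.8 against 7.12 CPM (1.37, 0.61 to 2.26; 65 UMIs in N-LKO and 17 in WT). There the WT level lay at its free RNA estimate of 7.44 CPM, and the N-LKO level above its own of 9.97 CPM. The highest level of Tfrc was in plasmacytoid dendritic-like cells, at 108 CPM in both libraries (34 UMIs in WT and 81 in N-LKO).

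The BMP ligands were highest in endothelial-like cells, except that N-LKO cholangiocyte-like cells held more Bmp6, and both were lower in the endothelial-like cells of N-LKO. Bmp6, the ligand that follows liver iron, stood at 190.5 CPM (173 to 209; 455 UMIs) in the WT cells against 126 CPM (115 to 139; 437 UMIs) in the N-LKO cells (log2 ratio −0.59, −0.78 to −0.40). Bmp2 was at 583 CPM (553 to 614) and 359 CPM (339 to 379), a log2 ratio of −0.70 (−0.81 to −0.59). Neither reached a 2-fold difference, but with a mitochondrial limit of 10% both did, at −1.54 and −1.38. In these cells the 10 endothelial markers, summed, came to 7666 (WT) and 5105 (N-LKO) CPM, with none at 0, and their part in the lower BMP levels was not tested. T-like cells held Bmp6 at 5.14 and 7.42 CPM and Bmp2 at 10.3 and 15.5 CPM, near free RNA. In cholangiocyte-like cells Bmp6 was higher in N-LKO, at 174 CPM (148 to 203; 158 UMIs) against 85.5 CPM (56.3 to 124; 27 UMIs), a log2 ratio of 1.00 (0.43 to 1.67). The summed endothelial markers of those cells came to 956 (WT) and 633 (N-LKO) CPM. In stellate-like cells Bmp6 was at 85.2 and 45.8 CPM and Bmp2 at 344 and 170 CPM, beside summed endothelial markers of 4086 and 1947 CPM.

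Ferroportin RNA was highest in macrophage-like cells and lower there in N-LKO. Slc40a1 stood at 1224 CPM (1187 to 1261; 4243 UMIs) in the WT cells and 653 CPM (635 to 670.2; 5380 UMIs) in the N-LKO cells, with a log2 ratio of −0.91 (−0.97 to −0.85), against free RNA estimates of 39.2 and 42.9 CPM. It lay in the Kupffer-like cluster, at 1665 (WT) and 883 (N-LKO) CPM. The monocyte-like cluster held 110 and 80.4 CPM. In the Kupffer-like clusters alone the log2 ratio was −0.92, so it was as large without the monocyte-like cluster. The summed Kupffer markers of macrophage-like cells came to 8217 (WT) and 6890 (N-LKO) CPM, with all 10 detected, and the summed monocyte or macrophage markers to 3145 and 4369 CPM. At a clustering resolution of 1.0 the Kupffer-like cells of the libraries fell mostly in different clusters, 1 with 1195 WT and 49 N-LKO cells and 1 with 363 and 3357. The part of these differences in the lower Slc40a1 was not tested, and at that resolution the log2 ratio was −0.93. After thinning, an Slc40a1 UMI was present in 51.9% (49.9 to 53.9) of the macrophage-like cells of WT and 33.2% (32.0 to 34.5) of those of N-LKO. The shares of T-like cells were 11.3% and 14.8%. Stellate-like cells held Slc40a1 at 735 and 341 CPM beside summed Kupffer markers of 3410 and 2450 CPM, and the part of those markers in this level was not tested.

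The ferritin genes were abundant in every class. Macrophage-like cells held Fth1 at 5327 (WT) and 5720.2 (N-LKO) CPM, and Ftl1 at 4546 and 4195 CPM. In hepatocyte-like cells Fth1 was at 3861 and 4698 CPM (log2 ratio 0.28, 0.26 to 0.31) and Ftl1 at 2456 and 2708 CPM (0.14, 0.11 to 0.17). Both WT levels lay below their free RNA estimates (4791 and 3384 CPM). With the unnamed Malat1-rich cluster counted as hepatocyte-like, the log2 ratios became −0.37 (Fth1) and −0.43 (Ftl1). A mitochondrial limit of 10% gave 0.17 for Fth1 and −0.25 for Ftl1, so neither sign is established. In endothelial-like cells both were lower in N-LKO, Fth1 at 1287 against 3118 CPM (−1.28, −1.33 to −1.22) and Ftl1 at 1125 against 2567 CPM (−1.19, −1.25 to −1.13). Their free RNA estimates there were also lower in N-LKO, at 909 against 2682 CPM for Fth1 and 664 against 1895 CPM for Ftl1, and with free RNA subtracted the log2 ratios came to −0.23 and −0.57. Ferritin genes have processed copies elsewhere in the genome, and the assignment of their UMIs was not checked.

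**Figure D4:**
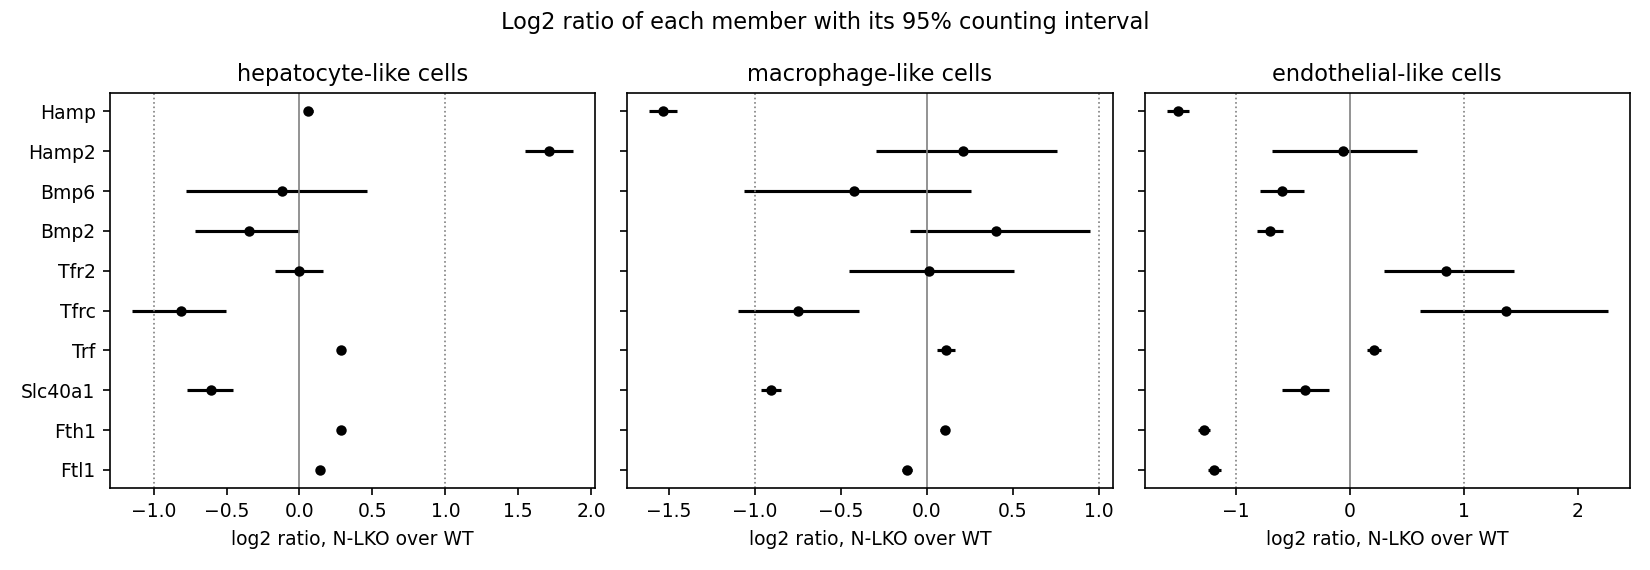
Log2 ratio of N-LKO over WT for each member in hepatocyte-like, macrophage-like and endothelial-like cells, with 95% counting intervals and dotted lines at 2-fold. Hamp2 (1.71) is the member past 2-fold in hepatocyte-like cells, and Slc40a1 (−0.91) lies near the lower line in macrophage-like cells.

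All 10 members reached 5 CPM in at least 1 library in each of these 3 classes. In hepatocyte-like cells 1 of 10 (Hamp2) was 2-fold higher in N-LKO, against 5.47% of the 9951 genes measured, and 0 were 2-fold lower, against 3.25%. In macrophage-like cells 0 were higher (background 3.99%) and 1, Hamp, was lower (6.08%), at 829 (WT) and 287 (N-LKO) CPM, both below their free RNA estimates of 976 and 334 CPM. In endothelial-like cells 1 was higher (Tfrc, 17 UMIs in WT and 65 in N-LKO; background 11.9%) and 3 were lower (Fth1, Ftl1 and Hamp; background 7.38%), each with a lower free RNA estimate in N-LKO. The median log2 ratio of the members was 0.03 in hepatocyte-like, −0.05 in macrophage-like and −0.49 in endothelial-like cells, beside 0.04, −0.05 and 0.09 over all genes.

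Lists of related genes were read beside the members. Of 17 measured genes of BMP and hepcidin signalling, in hepatocyte-like cells 3 were 2-fold higher in N-LKO and 0 lower, beside backgrounds of 5.47% and 3.25%. Their median was −0.09, against 0.04 over all genes. Fgl1, a secreted protein that lowers hepcidin by binding BMP6, stood at 46.7 (WT) and 242 (N-LKO) CPM (log2 ratio 2.37, 2.24 to 2.51). Atoh8, a BMP-induced transcription factor, had a log2 ratio of −0.92 (−1.68 to −0.28; 146 UMIs in WT and 21 in N-LKO). Smad6 and Smad7, inhibitors of the pathway, had −0.90 (−1.61 to −0.30; 164 and 24 UMIs) and −0.61 (−1.06 to −0.21; 311 and 56 UMIs). None of these 3 reached 2-fold, and Atoh8 and Smad6 lay near the minimum of 5 CPM. The part of free RNA in their values was not tested. Of 8 measured genes of the IL-6 arm 1 was higher and 0 lower (median 0.34), and Socs3, a feedback inhibitor of cytokine signalling, was at 1.91 and 8.82 CPM (2.20). Among 16 genes of iron uptake, storage and export 3 were higher and 0 lower (median 0.11), led by Lcn2, an iron-siderophore binding protein of the acute phase (252 UMIs in WT and 2099 in N-LKO; log2 ratio 4.91), and Scara5, a ferritin receptor (6.80 and 49.9 CPM). Of 12 genes of heme and red cell recycling 3 were higher and 1 lower (median 0.20). Lcn2, Fgl1 and Scara5 also led in macrophage-like and endothelial-like cells, and in T-like cells they stood at 85.7, 89.8 and 51.3 CPM in N-LKO against 7.70, 17.97 and 1.93 CPM in WT.

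In macrophage-like cells the lowest log2 ratios of the lists were those of Cd163, the hemoglobin scavenger receptor, at 159 (WT) and 3.15 (N-LKO) CPM (−5.63, −6.29 to −5.09), Atoh8 (−1.70), Id1, a BMP target gene (−1.10), and Spic, a transcription factor of iron-recycling macrophages (97.2 and 46.3 CPM; −1.07). The highest were Lcn2 (3.53), Scara5 (2.77), Fgl1 (2.49) and Inhbb, a subunit of activin B (2.02, from 4 UMIs in WT and 43 in N-LKO). In N-LKO, Lcn2, Scara5 and Fgl1 stood at 71.7, 18.7 and 69.0 CPM, below their levels in T-like cells, and the part of free RNA was not tested. Of 12 measured genes of heme and red cell recycling in macrophage-like cells, 1 was 2-fold higher and 2 were lower, and of 16 of iron uptake, storage and export 6 were higher and 0 lower, beside backgrounds of 3.99% and 6.08%. The latter count was not particular to macrophage-like cells. Of the same list, 7 of 17 were higher and 1 lower in endothelial-like cells, beside backgrounds of 11.9% and 7.38%. In T-like cells the median log2 ratio of its 16 measured genes was 0.69, beside 0.07 over all genes. The part of free RNA in these values was not tested. Endothelial-like cells had their lowest list values for Cd163 (−2.97, from 13 and 2 UMIs), Aco1, an iron regulatory protein (−1.11), Slc39a8, a metal importer (−0.91), and Hfe, a partner of the transferrin receptors (−0.79). Their highest were Scara5 (4.91), Lcn2 (3.87), Fgl1 (2.53) and Il6ra, the IL-6 receptor (2.34). Cd163 was the lowest in hepatocyte-like cells too, from 178 UMIs in WT and 1 in N-LKO (−5.05, −10.9 to −3.13). Its WT level there was 10.6 CPM, beside 159 CPM in WT macrophage-like cells. No free RNA estimate was set beside Cd163, and the part of free RNA in its hepatocyte-like and endothelial-like values was not tested.

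Across 24 profiles, 12 classes in each of 2 libraries, the genes whose level ran most like that of Hamp were Apoc1 (Pearson r of 0.98 on log2(CPM + 10)), Apoa2, Wfdc21, Ttr and Hpd. Those most like Bmp6 were Lama4 (0.94), Tm4sf1, Sema6a, Tinagl1 and Prex2, and those most like Slc40a1 were Clec4f (0.96), Epb41l3, Vsig4, Wfdc17 and Folr2. The profiles share 2 libraries and their free RNA, and these values describe them without a test.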

How the data were processed

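Liver cells of 1 WT and 1 N-LKO library were read by droplet-based 3′ single-cell RNA sequencing. The authors counted UMIs with Cell Ranger (7.1.0 per the file headers), and the deposited values are raw UMI counts for each gene and barcode, not normalized. The submitters' processing notes also name Seurat and the build mm9. Whether reads in introns were counted is not given in the sources used here. The libraries held 85522287 (WT) and 87575064 (N-LKO) UMIs over 100171 and 90147 barcodes.

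Barcodes with at least 1000 UMIs, at least 400 genes and at most 30% mitochondrial UMIs were kept. Doublets were scored with Scrublet (scanpy 1.11.5), and a score limit of 0.25 removed 8.57% and 10.6%. The study's own annotation was not used, so differences from it may come from the rebuilt names. Cells of both libraries were clustered together without integration (2000 variable genes, 30 principal components, 20 neighbors, leidenalg 0.10.2 at a resolution of 0.3) and named from 15 marker lists. A name needed a score of at least 0.2 and 3 markers raised 2-fold over the median of clusters with at least 20 cells in the same library. The scoring was revised once, before member values were seen. The reference minimum was then varied over 1, 10, 20, 50, 100 and 200 cells with member values in view. The last 3 named the Malat1-rich N-LKO cluster hepatocyte-like, and 20 was kept.

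UMIs were summed per class and library and scaled to CPM, with exact Poisson intervals. Log2 ratios set N-LKO over WT after adding 0.5 UMI, with exact conditional binomial intervals, and shares carry Clopper-Pearson intervals. No p-values were computed. Free RNA shares came from 10 secretory hepatocyte genes or, in hepatocyte-like cells, from markers of other classes. After subtraction the counts left were scaled to their own total, or in an added alternative to the total before. TMM factors came from edgeR 4.0.16. The ratio step was tested on simulated data with 200 changed genes per class and a log2 size of 1.5. Past 2-fold, 98.0% were recovered over 9372 genes in hepatocyte-like cells, 97% in macrophage-like and 96% in endothelial-like cells. Counting error was the only noise simulated, so differences between animals or in free RNA were not covered. The text names the 10 members, from 4 pathway lists the 4 highest and 4 lowest log2 ratios with at least 5 CPM in 3 classes, and the 5 genes most like Hamp, Bmp6 and Slc40a1. The members and lists were chosen with earlier results of these data known.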

Additional observations from a re-analysis of the deposited data

How the results depend on the processing

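No paired analysis was possible because each group has 1 library.

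The Hamp log2 ratio in hepatocyte-like cells (0.06) depended on the processing: it was −0.040 with a UMI minimum of 2000, 0.46 with a mitochondrial limit of 10%, −0.030 with TMM scaling, 0.020 relative to the median of all genes, 4.88 with free RNA subtracted and the counts left scaled to their own total, and 6.83 with that scaling left out, an alternative added after seeing the data. The last 2 values rest on a WT level of Hamp that nearly vanishes after subtraction. For Hamp2 (1.71) the values were 1.26, 1.52, 2.90 and 4.85 with the UMI minimum, the mitochondrial limit and free RNA subtracted with and without that scaling. Trf (0.29) was at 0.23 and 0.96 under the UMI minimum and the mitochondrial limit, 0.31 with a doublet limit of 0.15, 0.20 with TMM, 0.25 relative to the median, −1.11 and 0.84 with free RNA subtracted with and without that scaling, 0.19 without clusters far in Malat1 and 0.19 in the best-scoring cluster of each library. The unnamed Malat1-rich cluster counted in, an alternative chosen after seeing the data, gave −0.65 for Hamp, 1.04 for Hamp2 and −0.23 for Trf. The number of members past 2-fold in hepatocyte-like cells, 1, was 3 with the mitochondrial limit and 8 with free RNA subtracted, or 3 without that scaling. The scaling lowers every log2 ratio in these cells by 1.95. Fth1 and Ftl1 gave no WT value under either.

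In endothelial-like cells Bmp6 (−0.59) was at −0.89 and −1.54, and Bmp2 (−0.70) at −1.28 and −1.38, with the UMI minimum and the mitochondrial limit. In macrophage-like cells Slc40a1 (−0.91) was at −0.61 and −0.71 under these, −0.97 with free RNA subtracted and −0.98 as a mean of each cell's own CPM. Both ligands and Slc40a1 stayed below 0 under every alternative run. Leaving out shared barcodes, also added after seeing the data, moved none of these values beyond its interval. Over the other members in the 3 classes, 219 of 245 alternative values kept their sign, and 80 moved beyond the counting interval of the main value. Of ratios past 2-fold, the only ones for which a reversal was called, 0 reversed. Values that vanished on free RNA subtraction are not among the 245. The causes were not tested.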
